A study of Arabidopsis thaliana with 18 samples.

Results

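The flowering time regulators described here are 10 genes of Arabidopsis thaliana, chosen by gene identifier from the 37916 genes of the deposited table. They are the floral repressors FLC (AT5G10140), FLM (AT1G77080), MAF2 (AT5G65050), MAF5 (AT5G65080) and SVP (AT2G22540), the light-pathway factors CO (AT5G15840) and CIB1 (AT4G34530), and the flowering promoters FT (AT1G65480), SOC1 (AT2G45660) and AGL24 (AT4G24540). They were picked because prmt5 mutants are known to flower late through FLC, a choice by name and role that used no threshold on these values, although earlier results of these data were known when it was made. All 10 passed the filter of a mean of at least 1 TPM over the 18 libraries and were tested. Messenger RNA of seedlings was sequenced in 6 groups of 3 libraries. WT plants and plants with an insertion in PRMT5, labelled PRMT5 T-insert and called prmt5 here, were kept at 22 °C, held at 37 °C for 3 days (called heat), or sampled 24 h after those 3 days (called recovery). All groups grew on MS medium with 1.2% sucrose, and 1 insertion genotype is given, with no allele name. The age of the seedlings, the day length, the hour of harvest and the temperature of the recovery are not given in the sources used here.

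In Arabidopsis, the MADS-domain repressor FLC and its relatives keep the plant vegetative by binding, partly together with SVP, to the florigen gene FT and to SOC1. CO carries the day-length signal and switches on FT in the companion cells of the leaf phloem. FT protein then moves to the shoot apex, where SOC1 and AGL24 act in the change to flowering. PRMT5 is a protein arginine methyltransferase, and loss of it is known to raise FLC and delay flowering.

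Levels are TPM, a transcript level per gene length that is brought to one total in all libraries. TPM keeps no read depth, so the depth is unknown and no counting interval can be given. PRMT5 itself stood at 25.28 to 27.43 TPM in WT at 22 °C and at 2.32 to 4.51 TPM in prmt5, and it was lower in every prmt5 library than in every WT library of the same condition. Log2 changes are differences of log2(TPM + 1), with a standard error and an adjusted p from limma over the 21831 genes tested, 2-sided, with a threshold of 0.05. This scale understates changes of low genes. Whether replicates were separate plantings is not stated, so a p-value here measures the spread among libraries, and that spread may be technical. Whole seedlings were used, so fewer cells of a type and less RNA per cell cannot be told apart. The median log2 change over all genes was 0.35 for WT at heat, 0.19 for prmt5 at heat, 0.35 for WT at recovery and 0.45 for prmt5 at recovery, each against 22 °C. For prmt5 against WT it was -0.10 at 22 °C, -0.34 at heat and -0.04 at recovery. Median-ratio scaling and quantile normalization bring these medians to between -0.02 and 0.08. The share of called genes that were higher ran from 24.4% (prmt5 against WT at 22 °C) to 74.2% (WT at recovery) over the 12 comparisons, and from 45.3% to 54.7% under either scaling.

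**Figure D1:**
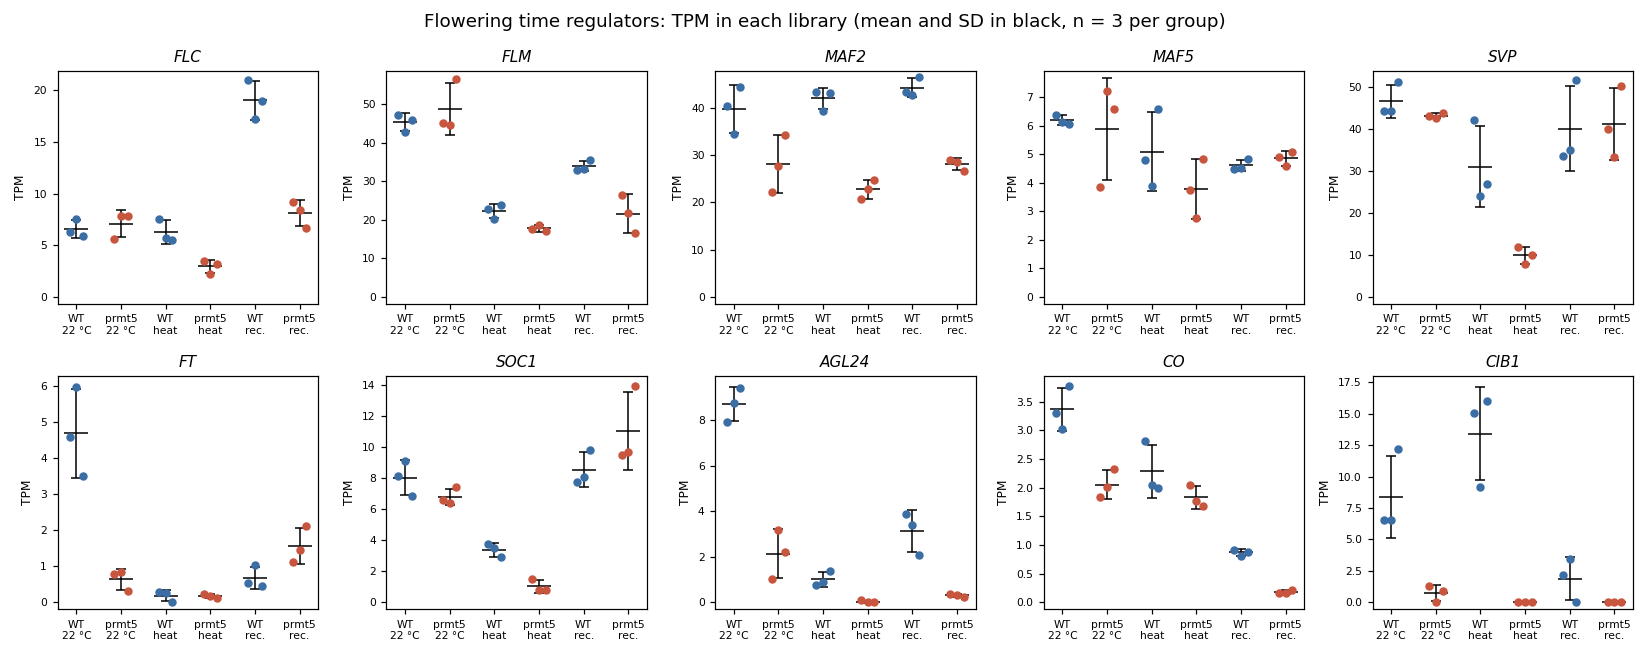
TPM of each of the 10 genes (vertical axes, from 0, each with its own scale) in the 18 libraries by group, with WT in blue and prmt5 in red; black marks give the mean and the SD of 3 libraries. FLC stood highest in WT at recovery (17.18 to 20.96 TPM), FT in WT at 22 °C (3.51 to 5.99 TPM), and CIB1 was listed at 0 in all 6 prmt5 libraries of heat and recovery.

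The stretches before 3 of the repressor genes are shown because FLC rose most among its relatives in WT at recovery, and because FLM and MAF2 share sequence there. Each is the 250 bases before the annotated gene start in RefSeq's TAIR10.1 assembly, 5′ to 3′ on the strand of the gene. The FLC stretch lies at chr5:3179449-3179698 on the minus strand, and capitals mark a G-box (CACGTG) 146 to 141 bases before the start and an evening element (AAAATATCT) 59 to 51 bases before it.
FLC: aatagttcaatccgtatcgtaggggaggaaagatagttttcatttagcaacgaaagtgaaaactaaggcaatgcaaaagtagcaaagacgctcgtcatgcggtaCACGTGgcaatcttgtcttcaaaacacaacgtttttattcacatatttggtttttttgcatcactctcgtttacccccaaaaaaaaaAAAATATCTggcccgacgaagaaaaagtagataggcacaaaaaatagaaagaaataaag
The FLM stretch lies at chr1:28955233-28955482 and the MAF2 stretch at chr5:25982004-25982253, both on the plus strand. Capitals mark the 35 bases they share without a difference, the longest shared run among the 45 pairs of the 10 genes. The next longest run in any pair was 12 bases.
FLM: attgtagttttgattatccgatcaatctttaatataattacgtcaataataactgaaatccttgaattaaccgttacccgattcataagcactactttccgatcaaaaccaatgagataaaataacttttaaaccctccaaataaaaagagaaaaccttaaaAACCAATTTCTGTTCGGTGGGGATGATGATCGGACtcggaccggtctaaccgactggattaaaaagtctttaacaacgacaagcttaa
MAF2: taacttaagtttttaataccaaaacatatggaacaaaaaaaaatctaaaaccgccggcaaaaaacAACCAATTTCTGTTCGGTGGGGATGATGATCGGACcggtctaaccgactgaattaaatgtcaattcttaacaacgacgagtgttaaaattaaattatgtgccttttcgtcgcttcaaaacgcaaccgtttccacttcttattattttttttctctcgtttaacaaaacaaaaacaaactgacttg
The shared run ends 54 bases before the start of FLM and 151 bases before the start of MAF2. Both strands of all 10 stretches were searched for 4 motifs, and none of the 4 matches found overlaps another. The CArG box, the binding motif of MADS-domain proteins, was found in 0 of 10, against 2.52% of 27443 promoters of the same length. The G-box was in 1 of 10 (all promoters 6.49%) and the evening element in 2 of 10, FLC and MAF5 (all promoters 2.36%). The heat shock element (GAANNTTC) was in 1 of 10, CO, against 9.55% of all promoters. A match describes the letters in this window and is not a bound site.

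FLC, which loss of PRMT5 is known to raise, did not stand higher in prmt5 at 22 °C in these libraries. The gene, the central repressor of the group, lies on chromosome 5 at 3173382 to 3179448, minus strand. In WT at 22 °C its 3 libraries held 6.31, 7.52 and 5.87 TPM, and in prmt5 5.59, 7.83 and 7.88 TPM. The 2 groups overlapped, and the log2 change was 0.09 ± 0.17 (standard error, adjusted p = 0.777). In WT at heat FLC held 7.58, 5.69 and 5.56 TPM, within the range of 22 °C or close to it. In prmt5 at heat it held 3.51, 2.24 and 3.15 TPM, the lowest group of the 6, below every other library. The transcript thus fell with heat in prmt5 by 1.03 ± 0.17 on the log2 scale (adjusted p = 2.86e-05) and not past the threshold in WT (-0.06 ± 0.17, adjusted p = 0.748). In WT, too, FLC was called lower at heat under median-ratio scaling (-0.41, adjusted p = 0.0171) and quantile normalization (-0.45, adjusted p = 0.00776). At heat prmt5 was lower than WT by 0.88 ± 0.17 (adjusted p = 0.000222), and under quantile normalization this difference was -0.20 and not past the threshold (adjusted p = 0.221).

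Recovery was where FLC was highest. Its 3 WT libraries held 20.96, 17.18 and 19.01 TPM, a mean of 19.1 ± 1.89 TPM (SD, n = 3), and the prmt5 libraries 9.20, 8.41 and 6.70 TPM. Every WT recovery library stood above every other library of the series, while the prmt5 recovery libraries overlapped those of 22 °C. Against 22 °C, FLC rose in WT by 1.41 ± 0.17 (adjusted p = 2.23e-06), which was 1.06 above the median of all genes. In prmt5 the change was 0.17 ± 0.17 (adjusted p = 0.352). Between heat and recovery FLC rose in both genotypes. The rise was 1.47 ± 0.17 in WT (adjusted p = 1.38e-06) and 1.20 ± 0.17 in prmt5 (adjusted p = 7.56e-06). In order of level, WT at recovery stood alone at the top and prmt5 at heat alone at the bottom. The other 4 groups lay between 5.56 and 9.20 TPM, and neighbours in that order overlapped.

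An annotated long noncoding RNA, AT5G01675, runs antisense to FLC and shares 804 of the 1180 exon bases of FLC (68.1%). Whether the counting used the strand is not given in the sources used here, so reads of FLC and of its antisense RNA cannot be told apart. AT5G01675, named after its values were seen, was listed at 0.52, 0.20 and 0.37 TPM in WT at 22 °C and at 2.85, 1.89 and 2.57 TPM in prmt5. The groups did not overlap, and the log2 change was 1.33 ± 0.21 (adjusted p = 0.000762). In WT the lncRNA rose by 1.00 ± 0.21 at heat (adjusted p = 0.000388) and by 1.53 ± 0.21 at recovery (adjusted p = 8.99e-06), both against 22 °C. In prmt5 neither change passed the threshold (-0.05 and -0.14). At recovery it held 2.35 to 3.42 TPM in WT and 1.59 to 2.66 TPM in prmt5, overlapping ranges.

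FLM, MAF2 and MAF5 are the members of the FLC clade that also repress flowering, with FLM and MAF2 known for their part in the response to ambient temperature through splice forms that gene-level TPM does not separate. FLM, at chromosome 1, 28955483 to 28960234, held 47.32, 42.82 and 46.02 TPM in WT at 22 °C and 45.12, 44.74 and 56.67 TPM in prmt5. At heat it held 22.89, 20.27 and 23.75 TPM in WT and 17.55, 18.68 and 17.10 TPM in prmt5. Both genotypes had lost more than the spread of their libraries, with log2 changes of -0.995 ± 0.13 in WT (adjusted p = 4.79e-06) and -1.40 ± 0.13 in prmt5 (adjusted p = 6.23e-08). At recovery FLM held 33.05, 33.30 and 35.58 TPM in WT and 26.50, 21.88 and 16.48 TPM in prmt5, still under every library of 22 °C in both genotypes. WT rose from heat to recovery by 0.59 ± 0.13 (adjusted p = 0.00108), and the change in prmt5 was 0.24 ± 0.13 (adjusted p = 0.107). At recovery prmt5 was lower than WT by 0.65 ± 0.13 (adjusted p = 0.000554). The small difference at heat (-0.31 ± 0.13, adjusted p = 0.0483) did not hold. It turned to 0.06 under median-ratio scaling and 0.03 under quantile normalization, and it kept its call only when 1 of 4 libraries was left out (prmt5 at 22 °C replicate 3, WT at heat replicate 2, prmt5 at recovery replicate 1 or 3), the adjusted p reaching 0.137 without another.

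MAF2, at chromosome 5, 25982254 to 25986435, was lower in prmt5 than in WT in all 3 conditions. Its WT libraries held 40.41, 34.42 and 44.49 TPM at 22 °C. They held 43.42, 39.41 and 43.18 TPM when sampled hot, and 43.39, 42.80 and 46.56 TPM after recovery. The prmt5 libraries held 22.18, 27.81 and 34.30 TPM at 22 °C, 20.73, 22.74 and 24.78 TPM when sampled hot, and 29.05, 28.52 and 26.65 TPM after recovery. The genotypes overlapped in none of the 3 conditions. The log2 changes were -0.50 ± 0.13 at 22 °C (adjusted p = 0.0158), -0.86 ± 0.13 at heat (adjusted p = 2.14e-05) and -0.64 ± 0.13 at recovery (adjusted p = 0.000468). The call at 22 °C ended without WT replicate 1 (-0.485, adjusted p = 0.058), WT replicate 3 (-0.42, adjusted p = 0.0535) or prmt5 replicate 1 (-0.35, adjusted p = 0.0572), all of 22 °C. It also ended with only the groups compared in the fit (adjusted p = 0.165). WT MAF2 did not change past the threshold at heat (0.08 ± 0.13, adjusted p = 0.562, turning to -0.31 under median-ratio scaling, past the threshold with adjusted p = 0.0188, and to -0.21 under quantile normalization). FLM fell there. In prmt5 MAF2 was higher at recovery than at heat by 0.29 ± 0.13 (adjusted p = 0.0471), a call that ended without any of 13 of the 18 libraries in turn (adjusted p up to 0.154) and that was 0.01 under both scalings.

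MAF5, in the same tandem array as MAF2 at chromosome 5, 25997504 to 26002619, had no genotype difference past the threshold in any condition. It held 6.05 to 6.39 TPM in WT at 22 °C and 3.86 to 7.21 TPM in prmt5, 3.89 to 6.59 and 2.76 to 4.84 TPM at heat, and 4.47 to 4.84 and 4.57 to 5.07 TPM at recovery. All genotype ranges overlapped. The fall of 0.515 ± 0.20 in prmt5 at heat against 22 °C (adjusted p = 0.0251) ended without prmt5 at 22 °C replicate 2 (-0.37) or 3 (-0.43) or prmt5 at heat replicate 2 (-0.35). Other MAF5 changes were called only after rescaling. Under median-ratio scaling and quantile normalization MAF5 was lower than at 22 °C in WT at heat (-0.60 and -0.65, from -0.26 as reported), in WT at recovery (-0.68 and -0.75, from -0.36) and in prmt5 at recovery (-0.585 and -0.61, from -0.20), with adjusted p between 0.00136 and 0.00695. MAF2 to MAF5 are related genes in tandem, and how reads were shared among them cannot be seen in TPM.

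The make-up of the clade changed between conditions. FLC, FLM and MAF2 to MAF5 together held 118 ± 7.03 TPM (SD over 3 libraries, as for the other sums and shares) in WT at 22 °C and 103 ± 15.8 TPM in prmt5. At heat the sum was 111 ± 7.13 TPM in WT and 80.2 ± 6.65 TPM in prmt5, and at recovery 128 ± 3.98 and 81.2 ± 9.08 TPM. FLC took 5.61 ± 1.08% of that sum in WT at 22 °C, 5.67 ± 1.01% at heat and 14.8 ± 1.15% at recovery. In prmt5 its share was 6.90 ± 0.83%, 3.75 ± 1.09% and 9.95 ± 0.63%. MAF4 went the other way, from 5.38 to 6.28 TPM in WT at 22 °C to 20.68 to 22.67 TPM at heat and 5.34 to 7.99 TPM at recovery. It rose at heat by 1.71 in WT and by 1.99 in prmt5 on the log2 scale (adjusted p = 1.14e-07 and 1.18e-08).

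**Figure D2:**
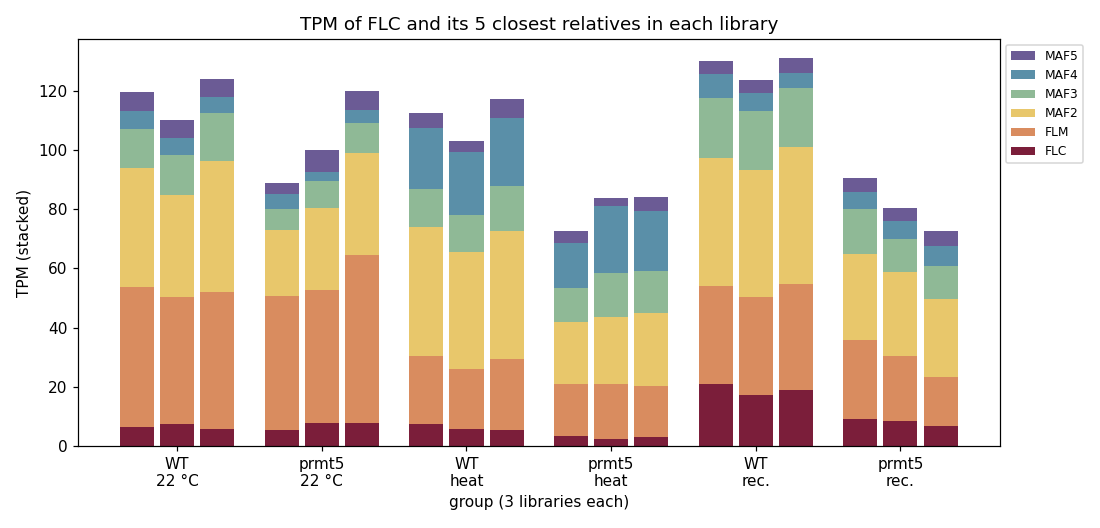
Stacked TPM (vertical axis, from 0) of FLC, FLM and MAF2 to MAF5 in each of the 18 libraries by group. The FLC block is tallest in the 3 WT recovery libraries (17.18 to 20.96 TPM), the MAF4 block in the heat libraries of both genotypes (15.33 to 22.67 TPM), and the stacks of prmt5 at heat and recovery (72.47 to 90.60 TPM) are all below those of WT (103.17 to 130.96 TPM).

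SVP, the MADS-domain partner of FLC and FLM, was lowest at heat in prmt5. SVP, at chromosome 2, 9579647 to 9583901, held 44.22, 44.22 and 51.18 TPM in WT at 22 °C and 42.97, 42.62 and 43.75 TPM in prmt5. At heat it held 42.11, 24.11 and 26.90 TPM in WT and 11.95, 7.85 and 9.89 TPM in prmt5. The prmt5 heat libraries lay below all others, and WT replicate 1 at heat lay close to 22 °C, apart from the other 2. SVP fell by 2.04 ± 0.21 in prmt5 (adjusted p = 1.58e-07) and by 0.61 ± 0.21 in WT (adjusted p = 0.0147). The call in WT ended without WT at 22 °C replicate 3 (-0.54), WT at heat replicate 2 (-0.45) or WT at heat replicate 3 (-0.53). At heat prmt5 was lower than WT by 1.53 ± 0.21 (adjusted p = 8.96e-06). At recovery SVP held 33.48, 34.91 and 51.66 TPM in WT and 40.06, 33.24 and 50.26 TPM in prmt5, which overlapped (0.05 ± 0.21, adjusted p = 0.859). Against 22 °C the recovery values were -0.24 ± 0.21 in WT (adjusted p = 0.324) and -0.08 ± 0.21 in prmt5 (adjusted p = 0.722). Both were called lower under median-ratio scaling (-0.62 and -0.53) and quantile normalization (-0.51 and -0.51), with adjusted p from 0.0184 to 0.0431. Between heat and recovery it rose in prmt5 by 1.95 ± 0.21 (adjusted p = 4.2e-07), and the change in WT was 0.37 ± 0.21 (adjusted p = 0.128), past the threshold only without WT at heat replicate 1 (0.605).

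CO, the zinc-finger factor that activates FT in long days, was low in all libraries and lowest after recovery. CO lies on chromosome 5 at 5170162 to 5173085, minus strand, and the 250 bases before it, at chr5:5173086-5173335, hold the heat shock element named above. At 22 °C it held 3.31, 3.02 and 3.77 TPM in WT and 1.83, 2.01 and 2.32 TPM in prmt5, without overlap. The log2 change was -0.52 ± 0.13 (adjusted p = 0.0163). The call ended under quantile normalization (-0.305, adjusted p = 0.156) and without WT replicate 1 (-0.52), WT replicate 3 (-0.45) or prmt5 replicate 2 (-0.51) of 22 °C. It also ended with only the groups compared in the fit (adjusted p = 0.059). At heat it held 2.82, 2.04 and 2.00 TPM in WT and 2.05, 1.76 and 1.68 TPM in prmt5, which overlapped, and the log2 change of -0.21 ± 0.13 (adjusted p = 0.17) turned to 0.05 under median-ratio scaling and to 0.48 under quantile normalization (adjusted p = 0.00647). At recovery it held 0.92, 0.81 and 0.88 TPM in WT and 0.16, 0.17 and 0.22 TPM in prmt5, the lowest group. Against 22 °C CO fell in both genotypes, by 1.22 ± 0.13 (WT, adjusted p = 8.65e-07) and 1.365 ± 0.13 (prmt5, adjusted p = 1e-07). The prmt5 change minus the WT change was -0.14 against 22 °C and -0.45 from heat to recovery, neither past the threshold. With a pseudocount of 0.1 both passed it by limma, at -1.09 (adjusted p = 0.00763) and -1.49 (adjusted p = 0.000792). At recovery prmt5 was lower than WT by 0.66 ± 0.13 (adjusted p = 0.000478). Of its 2924 exon bases, 738 (25.2%) are shared with the opposite-strand gene AT5G15843, so part of these reads could belong to either.

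CO is under clock control, and its regulator GI, which with FKF1 clears CO repressors in the evening, moved between the groups. GI held 1.44 to 2.95 TPM in WT at 22 °C and 6.06 to 8.62 TPM in prmt5, 41.80 to 48.70 and 35.87 to 41.52 TPM at heat, and 23.65 to 27.91 and 24.93 to 26.18 TPM at recovery. The part of the hour of harvest in the CO and FT results was not tested.

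CIB1, a basic helix-loop-helix factor that binds cryptochrome 2 in blue light and promotes FT, was present in WT and near or at 0 in prmt5. CIB1, at chromosome 4, 16498391 to 16500174, held 6.54, 6.52 and 12.17 TPM in WT at 22 °C and 1.28, 0.05 and 0.92 TPM in prmt5. At heat it held 15.07, 9.18 and 16.06 TPM in WT, and at recovery 2.21, 3.42 and 0 TPM. In prmt5 it was listed at 0 in all 6 libraries of heat and recovery, so no fold is given there. At 22 °C the log2 change was -2.45 ± 0.43 (adjusted p = 0.00185), without overlap. The difference at heat passed the threshold (adjusted p = 1.43e-06), and so did that at recovery (adjusted p = 0.0184), although WT replicate 3 was also listed at 0. The call at recovery ended without WT replicate 1 (adjusted p = 0.0735) or 2 (adjusted p = 0.109) of recovery. It also ended with a pseudocount of 5 (adjusted p = 0.0623) and with only the groups compared in the fit (adjusted p = 0.0844).

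All 1311 exon bases of CIB1 lie inside the exons of another annotated gene on the same strand, AT4G34540, whose 2805 bases match the length in the deposited table. RSEM had to divide reads between both, so a level of CIB1 rests on that division. AT4G34540, named after its values were seen, held 9.42 to 10.61 TPM in WT at 22 °C and 10.41 to 12.06 TPM in prmt5, 12.72 to 16.77 and 9.38 to 11.97 TPM at heat, and 12.20 to 13.84 and 11.54 to 12.16 TPM at recovery. The sum of both in WT was 18.3 ± 2.9 TPM (SD, n = 3) at 22 °C, 28.2 ± 3.89 TPM in the heat group and 14.7 ± 1.96 TPM in the recovery group. In prmt5 the sum was 12.1 ± 0.76, 10.4 ± 1.38 and 11.8 ± 0.32 TPM. The sum was lower in prmt5 by 0.55 ± 0.13 at 22 °C (adjusted p = 0.011) and by 1.36 ± 0.13 at heat (adjusted p = 2.79e-07). At recovery the difference was -0.29 ± 0.13 (adjusted p = 0.068). A sum of TPM still rests on the division of reads, because TPM is per gene length and the gene models have 1311 and 2805 bases. At 22 °C AT4G34540 alone did not stand lower in prmt5, so the lower sum there comes from the CIB1 values. Of 4 CIB relatives tested, 1 was lower in prmt5 at 22 °C, 2 at heat, and 1 at recovery, where 1 was higher. Of all genes 11.3%, 48.3% and 31.9% were lower in these conditions, and 27.8% were higher at recovery. CIB5 was lower in all 3 conditions (-0.82, -0.84 and -0.50).

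**Figure D3:**
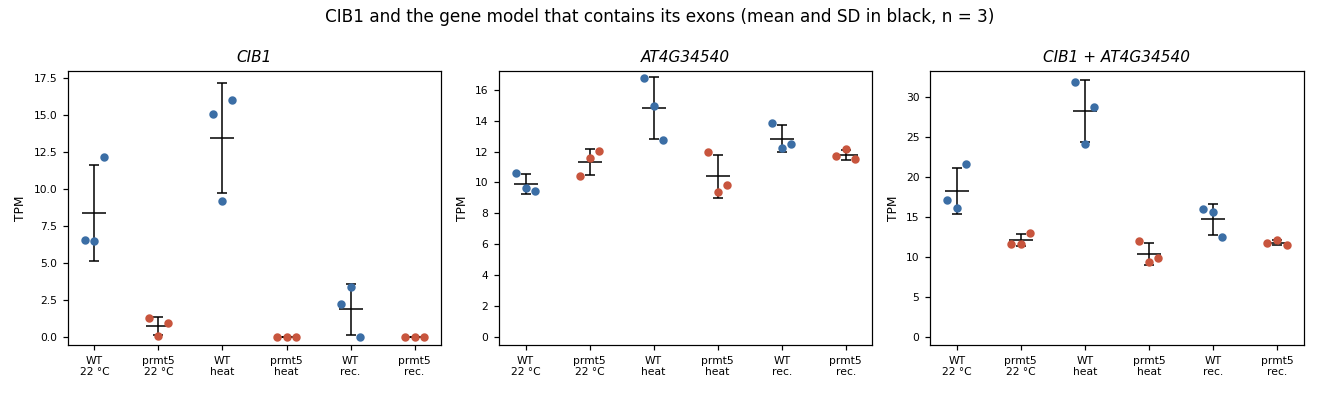
TPM (vertical axes, from 0) of CIB1, of AT4G34540, whose exons contain those of CIB1, and of their sum in the 18 libraries, with WT in blue, prmt5 in red, and the mean and SD of 3 libraries in black. CIB1 is at 0 in prmt5 at heat and recovery while AT4G34540 stays between 9.38 and 12.16 TPM there, and the sum at heat is 24.12 to 31.84 TPM in WT against 9.38 to 11.97 TPM in prmt5.

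FT, the florigen gene, was high in 1 group only. FT, at chromosome 1, 24331373 to 24333999, held 4.59, 5.99 and 3.51 TPM in WT at 22 °C and 0.79, 0.83 and 0.31 TPM in prmt5. At heat it held 0.29, 0.26 and 0 TPM in WT and 0.24, 0.17 and 0.11 TPM in prmt5, and at recovery 0.53, 1.04 and 0.46 TPM in WT and 1.12, 1.44 and 2.11 TPM in prmt5. All libraries of WT at 22 °C stood above every other library. At 22 °C prmt5 was lower by 1.79 ± 0.21 (adjusted p = 7.94e-05). With heat WT fell by 2.25 ± 0.21 (adjusted p = 9.16e-08), and at recovery it was still lower than at 22 °C by 1.76 ± 0.21 (adjusted p = 2.68e-06).

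The order of the genotypes at recovery was the opposite. There FT was higher in prmt5 by 0.61 ± 0.21 (adjusted p = 0.0212). This call ended without WT at recovery replicate 1 (0.55, adjusted p = 0.0672) or 3 (0.515, adjusted p = 0.0779) or prmt5 at recovery replicate 3 (0.46, adjusted p = 0.089), and with a pseudocount of 0.1 (adjusted p = 0.0738). In prmt5 FT rose from heat to recovery by 1.11 ± 0.21 (adjusted p = 0.000197). It was above its level of 22 °C by 0.635 ± 0.21 (adjusted p = 0.0119), which was 0.185 above the median of all genes. That call ended without prmt5 at 22 °C replicate 3 (0.48) or prmt5 at recovery replicate 3 (0.485), and under median-ratio scaling (0.42) and quantile normalization (0.07). The small FT changes in prmt5 at heat against 22 °C (-0.47) and in WT from heat to recovery (0.50) ended without any of 11 and 12 of the 18 libraries in turn (adjusted p up to 0.152 and 0.202). TSF, the closest relative of FT, fell under the filter and was not tested. It held 2.04, 1.76 and 2.00 TPM in WT at 22 °C and 0.09, 0.66 and 0.40 TPM in prmt5.

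SOC1, the MADS-domain integrator at the shoot apex and a target of FLC and SVP, fell at heat and rose again at recovery. SOC1, at chromosome 2, 18807505 to 18811125, minus strand, held 8.12, 9.10 and 6.86 TPM in WT at 22 °C and 6.58, 6.37 and 7.39 TPM in prmt5. At heat it held 3.74, 3.51 and 2.89 TPM in WT and 1.48, 0.77 and 0.82 TPM in prmt5. At recovery it held 7.74, 8.07 and 9.82 TPM in WT and 9.49, 9.67 and 13.90 TPM in prmt5. The genotypes overlapped at 22 °C and at recovery and not at heat, where prmt5 was lower by 1.13 ± 0.165 (adjusted p = 2.06e-05). At recovery the genotype difference of 0.32 ± 0.165 (adjusted p = 0.107) was called higher under median-ratio scaling (0.39, adjusted p = 0.0487) and quantile normalization (0.45, adjusted p = 0.0249). With heat SOC1 fell in both genotypes. The fall was 1.04 ± 0.165 in WT (adjusted p = 3.22e-05) and 1.96 ± 0.165 in prmt5 (adjusted p = 1.65e-08). It then rose from heat to recovery, 1.12 ± 0.165 in WT (adjusted p = 2.32e-05) and 2.57 ± 0.165 in prmt5 (adjusted p = 1.31e-09). In prmt5 it ended above its level of 22 °C by 0.61 ± 0.165 (adjusted p = 0.00323), a call lost under median-ratio scaling (0.20) and quantile normalization (0.165). By mean level SOC1 thus stood at its highest in prmt5 at recovery, the group where CO stood at its lowest.

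AGL24, which promotes flowering together with SOC1 and is the closest relative of SVP, had its highest level in WT at 22 °C as FT did. AGL24, at chromosome 4, 12670897 to 12674106, minus strand, held 7.95, 8.79 and 9.45 TPM in WT at 22 °C and 1.03, 3.18 and 2.19 TPM in prmt5. At heat it held 0.78, 0.87 and 1.36 TPM in WT and 0.08, 0 and 0 TPM in prmt5. At recovery it held 3.88, 3.42 and 2.09 TPM in WT and 0.37, 0.30 and 0.23 TPM in prmt5. The genotypes did not overlap in any condition. The log2 changes were -1.69 ± 0.23 at 22 °C (adjusted p = 0.000246), -0.95 ± 0.23 at heat (adjusted p = 0.00149) and -1.64 ± 0.23 at recovery (adjusted p = 1.76e-05). Between heat and recovery AGL24 rose in WT by 1.03 ± 0.23 (adjusted p = 0.000914), and in prmt5 the change was 0.34 ± 0.23 (adjusted p = 0.187). The prmt5 libraries of heat and recovery did not overlap. Their change was called a rise with a pseudocount of 0.1 (1.70, adjusted p = 0.000929) and with only the groups compared in the fit (adjusted p = 0.0191). For SVP, its relative with the opposite role, the genotype difference was -0.105 at 22 °C (adjusted p = 0.798) and 0.05 at recovery, neither past the threshold.

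Counted over the 10 genes, more were lower than higher in prmt5. At 22 °C 0 were higher and 5 lower (MAF2, FT, AGL24, CO and CIB1), where 3.64% and 11.3% of all genes tested were higher and lower. At heat 0 were higher and 7 lower, against 19.9% and 48.3% of all genes, and the members' median log2 change was -0.87 against -0.34 over all genes. The FLM call at heat ended under median-ratio scaling (0.06) and quantile normalization (0.03). Quantile normalization also ended the FLC call (-0.20, adjusted p = 0.221) and called CO higher in prmt5 (0.48, adjusted p = 0.00647). At recovery 1 was higher (FT) and 6 lower, against 27.8% and 31.9%. In each condition a larger share of the members than of all genes was called lower. MAF2, AGL24 and CIB1 were lower in prmt5 in all 3 conditions, which held for 3.98% of all genes tested. The MAF2 call at 22 °C and the CIB1 call at recovery ended in other settings (adjusted p up to 0.165 and 0.109). Those of AGL24 held in every setting that tested it.

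At heat, the repressors FLM and SVP and the promoters FT, SOC1 and AGL24 were lower than at 22 °C in both genotypes. As reported, CO was called lower in WT only, and FLC and MAF5 in prmt5 only. In WT 0 rose and 6 fell at heat (FLM, SVP, FT, SOC1, AGL24 and CO), where 49.8% of all genes rose and 25.7% fell. In prmt5 0 rose and 7 fell, against 45.5% and 36.0%. At recovery 1 was higher and 5 lower than at 22 °C in WT (all genes 49.8% and 17.3%), the higher one being FLC. In prmt5 2 were higher, FT and SOC1, and 3 lower (all genes 53.4% and 24.7%). The split in prmt5 turned with the scaling. Under median-ratio scaling 0 were higher and 6 lower, and under quantile normalization 0 higher and 7 lower, since FT and SOC1 lost their calls and MAF2, MAF5 and SVP gained lower ones under both. In WT at heat 9 and 8 members were lower under these scalings, and 0 higher. In prmt5 at heat MAF2 gained a lower call under both, from -0.275 as reported. It was -0.43 under median-ratio scaling (adjusted p = 0.0019) and -0.465 under quantile normalization (adjusted p = 0.000963), where CIB1 gained one too. For WT at recovery against 22 °C MAF5 and SVP gained lower calls under both scalings. From heat to recovery 5 rose and 2 fell in WT (all genes 31.2% and 33.7%), and 5 rose and 1 fell in prmt5 (all genes 43.7% and 28.7%). The comparisons share libraries, so these counts are not independent of each other.

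**Figure D4:**
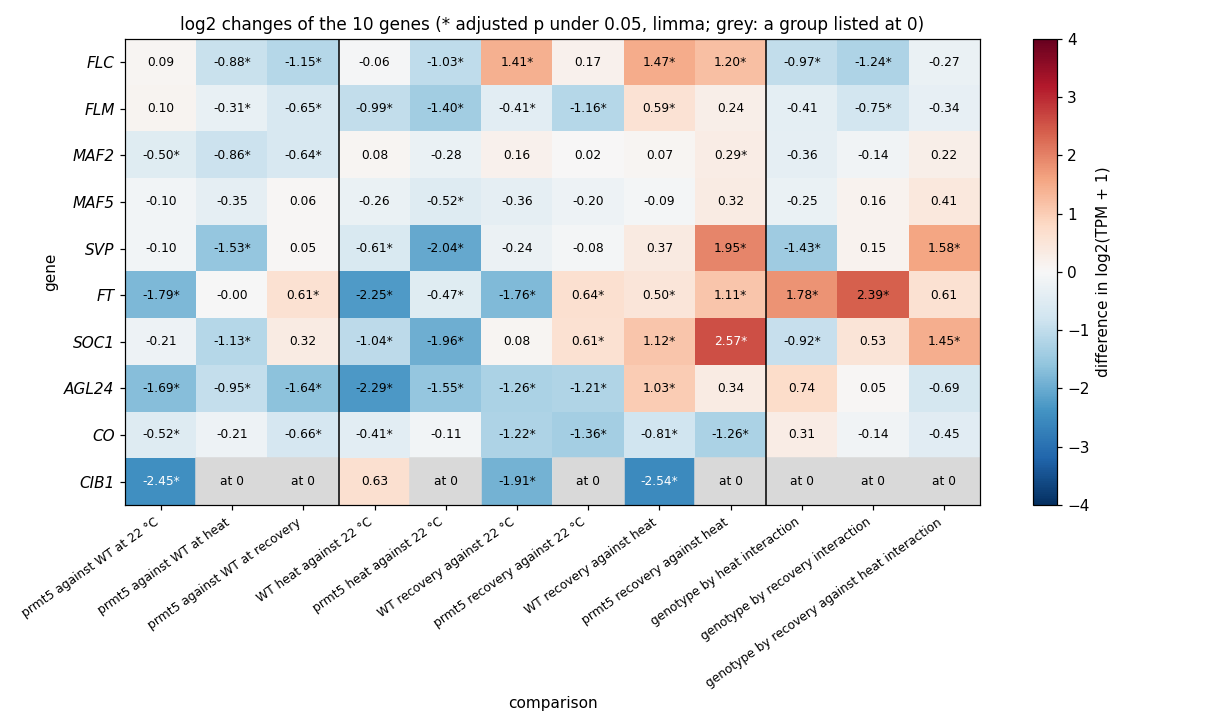
Log2 changes (colour and printed value, difference in log2(TPM + 1)) of the 10 genes (rows) in 9 comparisons and 3 interactions (columns), with a star for an adjusted p under 0.05 by limma and grey cells where a prmt5 group of CIB1 was listed at 0. The interaction columns give the prmt5 response minus the WT response. FLC has 1.41 for WT at recovery against 22 °C beside 0.17 for prmt5, and FT -1.79 for prmt5 against WT at 22 °C beside 0.61 at recovery.

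The response to heat differed between the genotypes for 4 members by the test of the difference itself, the prmt5 response minus the WT response. It was lower for FLC (-0.97 ± 0.23, adjusted p = 0.00284), SVP (-1.43 ± 0.29, adjusted p = 0.000848) and SOC1 (-0.92 ± 0.23, adjusted p = 0.00407), and higher for FT (1.78 ± 0.30, adjusted p = 0.00016), whose prmt5 libraries were already low at 22 °C. Among all genes 33.3% were lower and 18% higher. The value for SOC1 was not past the threshold with a pseudocount of 5 (-0.335, adjusted p = 0.0652) or quantile normalization (-0.49, adjusted p = 0.0869). For recovery against 22 °C 2 members were lower, FLC (-1.24 ± 0.23, adjusted p = 0.000585) and FLM (-0.75 ± 0.19, adjusted p = 0.00416), and FT was higher (2.39 ± 0.30, adjusted p = 1.98e-05). Among all genes 20.1% were lower and 26.1% higher. For recovery against heat the difference was positive for 3 members and negative for 0, against 35.1% and 14.0% of all genes. The 3 were SVP (1.58 ± 0.29, adjusted p = 0.0004), SOC1 (1.45 ± 0.23, adjusted p = 0.000128) and CIB1, whose prmt5 libraries were at 0 in both groups while WT fell. The count of negative values was 2 under median-ratio scaling (FLM -0.63 and CO -0.63) and 4 under quantile normalization (FLC -0.89, FLM -0.74, AGL24 -0.88 and CO -0.87). With a pseudocount of 0.1 CO was called negative too (-1.49). The heat difference had 3 positive values under either scaling, with AGL24 and CO added to FT.

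The genes that act on FLC were counted next, from lists chosen with earlier results of these data known. Of 17 FLC activators, 1 was higher and 3 lower in prmt5 at 22 °C (median log2 -0.13, all genes -0.10). Of all genes 3.64% were higher and 11.3% lower there. The lower ones were ARP6 (-1.07) and SWC6 (-0.66), subunits of the SWR1 complex that places the histone variant H2A.Z, and FRI (-0.58), the scaffold of the FRIGIDA complex. FRL1, a FRI relative, was higher (0.44). At heat 5 activators were higher and 8 lower in prmt5 (all genes 19.9% and 48.3%), led by SWC6 (-1.67) and ARP6 (-1.07). At recovery 5 were higher and 2 lower (all genes 27.8% and 31.9%), led by FRL1 (0.93) and ARP6 (-0.66). With heat 14 of the 17 rose in WT and 14 in prmt5 (49.8% and 45.5% of all genes; medians 1.035 and 1.01, all genes 0.35 and 0.19). In WT FRL2 (1.70), ATX1 (1.60), a histone methyltransferase gene, and FRL1 (1.415) led them. The FLC change there was -0.06 as reported, and called lower under both scalings. Of 8 genes of the autonomous pathway, which keeps FLC down, 0 were higher and 1 lower in prmt5 at 22 °C, the RNA-binding protein gene FPA (-0.47). Of 9 tested genes of vernalization and Polycomb silencing, 0 were called at 22 °C, 4 were higher and 3 lower in prmt5 at heat, and 2 were higher and 1 lower at recovery. VIN3, induced by cold in the course of vernalization, was not tested, and it was listed at 0 in WT at 22 °C and held 0.47, 0.94 and 1.39 TPM in WT at heat.

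Of 29 photoperiod genes, 3 were higher and 9 lower in prmt5 at 22 °C (all genes 3.64% and 11.3%). GI (1.27) and FKF1 (0.69) were among the higher ones, and the CO relatives COL1 (-1.25) and COL2 (-0.79) among the lower ones. At heat 6 were higher and 13 lower (all genes 19.9% and 48.3%), with NF-YB3 (-2.75) and NF-YB2 (-1.06), subunits of the CCAAT-binding factor that works with CO at FT, COL1 (-2.45) and the CO repressor CDF1 (-1.50) ahead. At recovery 13 were higher and 4 lower (all genes 27.8% and 31.9%, median 0.19, all genes -0.04). The largest change there was that of CDF5, which held 20.29 to 28.79 TPM in prmt5 and 2.55 to 4.75 TPM in WT. COL1 (1.54) and CDF3 (1.45) were higher too, and NF-YB3 (-1.65) was lower. Of 10 tested FT repressors outside the MADS family, 0 were higher and 3 lower in prmt5 at 22 °C, TEM2 (-0.78), AP2 (-0.44) and TOE1 (-0.43). At heat 0 were higher and 6 lower, where 48.3% of all genes were lower, led by the AP2-type factors SMZ (-1.76), SNZ (-1.73), TOE1 (-1.22) and TOE2 (-0.97). At recovery 1 was higher and 2 lower.

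Of 5 tested SPL genes of the age pathway, 0 were higher and 2 lower in prmt5 at 22 °C (SPL2 -0.86 and SPL11 -0.72), 1 was higher and 3 lower at heat (SPL2 -2.70, SPL4 -1.13), and 0 were higher and 3 lower at recovery (SPL4 -2.24, SPL2 -1.04). Of all genes 11.3%, 48.3% and 31.9% were lower in these 3 comparisons, and 3.64%, 19.9% and 27.8% higher. Of 8 tested florigen partners and MADS promoters, 0 were higher and 6 lower at heat, beside the same 48.3% of all genes. They included MFT (-2.46), a relative of FT, and FD (-0.78), the bZIP partner of FT at the apex. Of the 5 floral meristem identity genes SEP3 alone passed the filter. SEP3 was lower in prmt5 by 1.00 at heat (adjusted p = 0.00294) and by 1.71 at recovery (adjusted p = 4.44e-05).

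**Figure D5:**
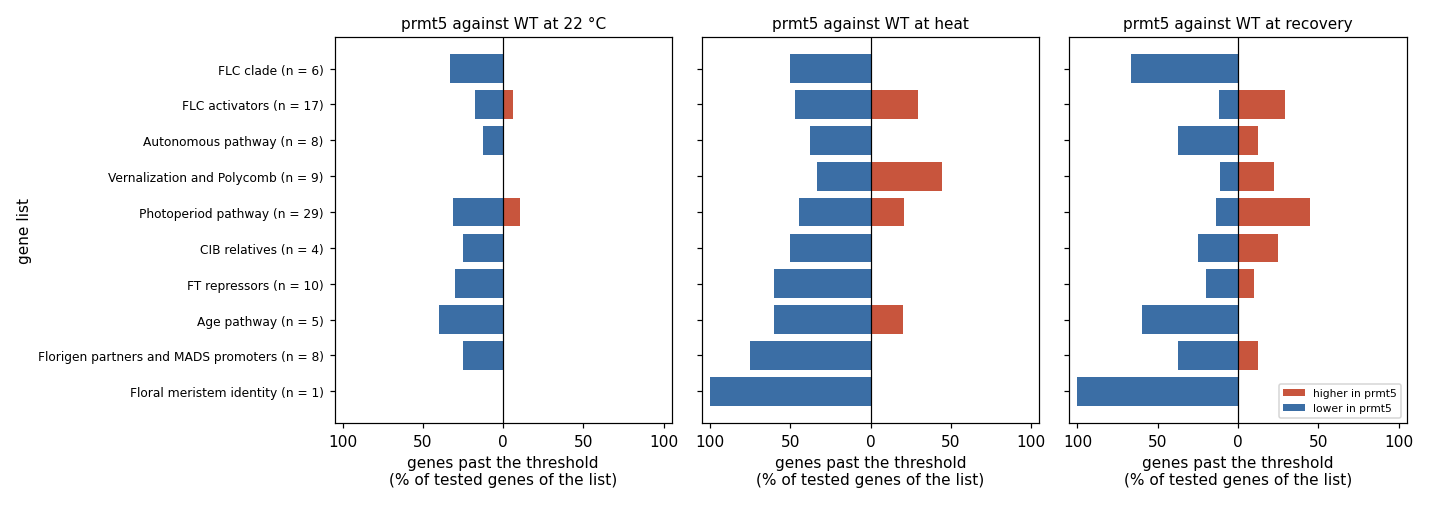
Share of the tested genes of each pathway list (horizontal axes, percent) that were higher (red, to the right) or lower (blue, to the left) in prmt5 at an adjusted p under 0.05, for the 3 conditions. At 22 °C no list exceeds 2 lower of 5 (age pathway), at heat 6 of 8 florigen partners and MADS promoters and 6 of 10 FT repressors are lower, and at recovery 13 of 29 photoperiod genes are higher.

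Markers of the cells in which these genes act moved as well. Of 3 tested shoot meristem markers, 3 were lower in prmt5 at heat, 2 at recovery and 0 at 22 °C, where 48.3%, 31.9% and 11.3% of all genes were lower. The summed level of the 5 meristem markers was 42.84 to 43.28 TPM in WT at 22 °C and 30.90 to 43.68 TPM in prmt5, 26.28 to 33.22 and 6.84 to 10.93 TPM at heat, and 38.16 to 48.30 and 18.48 to 19.39 TPM at recovery. The other 2 markers were too low to test. CLV3 was listed at 0 in all 6 prmt5 libraries of heat and recovery, and WUS held 0.45 to 0.85 TPM in prmt5 at heat against 0.26 to 0.35 TPM in WT. At heat the meristem sum was lower in prmt5, as SVP, SOC1 and AGL24 were. At recovery the sum was lower, as AGL24 was, while SVP and SOC1 were not, and at 22 °C AGL24 was lower with 0 markers called. The part of these markers in the results was not tested. Of 4 phloem companion cell markers 0 were called between genotypes at 22 °C, where FT differed. At heat 0 were higher and 2 lower in prmt5 (all genes 19.9% and 48.3%). At recovery 1 was higher and 1 lower (all genes 27.8% and 31.9%), so the sum there joins markers that went both ways. The summed level of the 4 was 178.69 to 199.43 TPM in WT and 161.13 to 196.50 TPM in prmt5 at 22 °C, 164.07 to 201.62 and 96.55 to 139.35 TPM at heat, and 146.62 to 156.49 and 142.25 to 150.59 TPM at recovery, with 0 of 4 at 0. Of 4 photosynthesis markers 4 fell in both genotypes at heat and at recovery against 22 °C. Of all genes 25.7% fell at heat and 17.3% at recovery in WT, and 36.0% and 24.7% in prmt5. Between genotypes 0 of the 4 were called at 22 °C (median log2 -0.05). At heat 3 were lower in prmt5 (median -1.37), and at recovery 4 were (median -1.59). WT replicate 3 at 22 °C held the lowest levels of the root hair markers EXPA7 (1.46 TPM, the others 6.46 and 8.25) and COBL9 in its group, and WT replicate 1 at heat and replicate 3 at recovery the highest summed photosynthesis markers of theirs (4551 and 7526 TPM). Without these 3 libraries the calls of MAF2 at 22 °C (-0.42, adjusted p = 0.0666), of FT between genotypes at recovery (0.515, adjusted p = 0.0687) and of FLM in WT at recovery against 22 °C (-0.43, adjusted p = 0.0506, from -0.41 and 0.0128 with all libraries) ended.

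Genes with the most similar course over the 18 libraries were found for 6 members, by the root mean square difference of log2(TPM + 1) after each gene was centred on its mean. For FLC these were HDA3 (0.205), ASP1 (0.225) and ASHR2 (0.23). For SVP they were COL3 (0.20), HISN5B (0.215) and TINY2 (0.235), for SOC1 CNX7 (0.21), TON1B (0.21) and KCS4 (0.23), and for CO PDE149 (0.15), AMK2 (0.17) and TIM (0.20). The nearest genes were farther off for FT, with HCF173 (0.41), RbcX2 (0.47) and SUS5 (0.51), and for CIB1, with BEE3 (0.84), GA3OX1 (0.86) and CPL3 (0.86). For scale, the standard deviation of the member's own values was 0.71 for FLC, 0.77 for SVP, 0.81 for FT, 0.89 for SOC1, 0.62 for CO and 1.56 for CIB1. The libraries share their groups, so a like course describes these 6 groups.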

How the data were processed

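The authors' TPM for 37916 genes in 18 libraries was used as deposited. Poly(A) RNA was selected with oligo dT and prepared with a TruSeq kit, per the labels' protocols. Reads were assigned with RSEM to the TAIR10 build, per the submitters' processing notes; its version is not given in the sources used here. The authors' 6 columns of group means were not used in tests. TPM gives no depth, and count models were not used.

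The 21831 genes whose mean over 18 libraries reached 1 TPM were fitted as log2(TPM + 1) with limma 3.58.1 in R 4.3.3, with 6 group means, 12 residual degrees of freedom and a trended prior (eBayes). The 9 comparisons and 3 interactions each had their own Benjamini-Hochberg adjustment. The step was tested on simulated data. Correlations between libraries of a group ran from 0.964 to 0.986 across genes, and no library pair was identical. Locations, overlaps and sequences came from RefSeq's TAIR10.1, in which all 10 members matched by identifier. Tables and plots were made in Python (3.11.15), using numpy (2.4.6), matplotlib (3.10.9) and pandas (2.3.3).

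The members and lists were chosen with earlier results of these data known. All 10 members are named, and of each list up to 4 genes with the largest change past the threshold in the comparison described. The most similar genes are the 3 with a symbol, outside organelle and ribosomal RNA genes. The alternatives tried were a pseudocount of 0.1 or 5, a minimum of 5 TPM or no minimum, median-ratio scaling, quantile normalization, only the groups compared, a replicate block and each library left out. After the data were seen, 3 WT libraries were also left out together, and CIB1 was summed with AT4G34540.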

Additional observations from a re-analysis of the deposited data

Results flagged for a closer look

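The genotypes differed in their response to heat, by the test of the difference (prmt5 response minus WT response, log2 scale, limma), for FLC (-0.97, adjusted p = 0.00284), SVP (-1.43, adjusted p = 0.000848), SOC1 (-0.92, adjusted p = 0.00407) and FT (1.78, adjusted p = 0.00016). They differed in the change from 22 °C to recovery for FLC (-1.24, adjusted p = 0.000585), FLM (-0.75, adjusted p = 0.00416) and FT (2.39, adjusted p = 1.98e-05). From heat to recovery the changes differed for SVP (1.58, adjusted p = 0.0004), SOC1 (1.45, adjusted p = 0.000128) and CIB1 (2.54, adjusted p = 0.00287). The CIB1 value comes from log2(TPM + 1) with both prmt5 groups at 0 and is no bound on a fold. With CIB1 and AT4G34540 summed it was 1.07 (adjusted p = 0.000216).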

How the results depend on the processing

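TPM carries no depth, so the precision of the low genes (FT, AGL24, CO and CIB1, all dropped by a minimum mean of 5 TPM) is unknown. With that minimum the members called numbered 1 for prmt5 against WT at 22 °C, 3 at recovery, 3 for WT at heat, 2 for WT and 2 for prmt5 at recovery against 22 °C, and 3 for WT from heat to recovery, where 5, 7, 6, 6, 5 and 7 were called. With only the groups compared in the fit, 3 were called at 22 °C in place of 5, since MAF2 and CO lost their calls. A pseudocount of 5 gave 5 calls in the recovery interaction and 5 in the interaction from heat to recovery, in place of 3 each, and the latter had 5 under median-ratio scaling and 7 under quantile normalization. Median-ratio scaling turned FLM between genotypes at heat to 0.061, MAF2 in WT at heat to -0.31 and MAF2 in prmt5 at recovery against 22 °C to -0.42. Quantile normalization turned FLM to 0.034, CO between genotypes at heat to 0.48 and the same MAF2 change to -0.46. Leaving out each library in turn gave 3 to 5 calls for prmt5 against WT at 22 °C, 6 to 7 at heat and 5 to 7 at recovery. Against 22 °C the counts were 5 to 6 for WT at heat, 5 to 8 for prmt5 at heat, 6 to 6 for WT at recovery and 4 to 6 for prmt5 at recovery. From heat to recovery they were 6 to 7 in WT and 5 to 6 in prmt5, and for the interactions 4 to 6 (heat), 3 to 4 (recovery) and 3 to 5 (heat to recovery). Of 2160 single values without a library, 69 lost and 28 gained a call and 0 reversed. Deviations from the group means of same-numbered libraries had 45 correlations from -0.20 to 0.19, 8 of them above 0.1. Libraries of different number were not compared, so these values cannot tell whether replicate numbers pair the libraries. With the replicate block the counts of calls stayed at 5, 7 and 7 between genotypes, FLM at heat lost its call (adjusted p = 0.0622) and MAF2 in prmt5 at heat gained one (adjusted p = 0.0419). Of the alternatives chosen after seeing the data, the sum of CIB1 and AT4G34540 also ended the fall of CIB1 in WT at recovery (-0.29, adjusted p = 0.0566) and called a rise in WT at heat (0.60, adjusted p = 0.000582). Other causes were not tested.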
